A study of Mus musculus with 12 samples.

Results

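The genes described here are 10 components of the Notch pathway: the receptors Notch1, Notch2 and Notch3, the ligands Dll1, Dll4, Jag1 and Jag2, the DNA-binding protein Rbpj and the target genes Hes1 and Hey1. They were taken by symbol from a count table of 37991 Ensembl genes, all 10 had a row, and all 10 passed the filter on low counts that left 15961 genes to test. The libraries were bulk RNA-seq of whole pancreatic islets from male C57BL/6 mice. Tg7 mice overexpress the microRNA miR-7 in their β-cells, and wild-type (Wt) littermates served as controls. The sources used here do not name the promoter that drives the transgene. Islets came from mice of 2 weeks (2w), when Tg7 mice had normal blood glucose, and 12 weeks (12w), when they were hyperglycaemic. Each of the 4 groups (Wt 2w, Tg7 2w, Wt 12w and Tg7 12w) held 3 libraries, and per the study's methods each library was a pool from at least 3 animals. The questions put to the data were how the Notch components differ between Tg7 and Wt islets at each age, and how they change between the ages within a genotype.

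Notch signalling passes between touching cells. A Delta-like (Dll) or Jagged (Jag) ligand on one cell binds a Notch receptor on its neighbour, the receptor is cleaved by ADAM proteases and then γ-secretase, and its intracellular part enters the nucleus and joins RBPJ to switch on repressors of the Hes and Hey families. In the embryonic pancreas HES1 holds back the endocrine factor Neurog3 and so keeps progenitors from becoming hormone cells. In adult organs Dll4, Notch1, Notch4 and Hey1 are best known from endothelium, and Notch3 and Heyl from pericytes and smooth muscle.

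Library totals ran from 11610697 to 17515758 counts. The 2 insulin genes took 10.1 to 15.4% of counts in Wt 2w, 1.84 to 4.09% in Tg7 2w, 14.9 to 29.99% in Wt 12w and 8.08 to 8.24% in Tg7 12w. All 8 β-cell markers were detected, and their summed level in Tg7 was 0.286 of that in Wt at 2w and 0.296 at 12w, with every Tg7 library below every Wt library of its age. The rows of the miR-7 genes Mir7-1, Mir7-2 and Mir7b held 5 to 30, 0 to 13 and 0 to 10 counts per library. They cannot check the labels, because these libraries were not made for small RNA. Library 1 of Wt 12w had the smallest total and the largest insulin share of all. Member calls that depended on a single library are given with its value left out. Levels are given as CPM, read counts scaled to a common library total after TMM factors, which correct for a few very abundant genes.

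To see whether miR-7 could pair with these transcripts, the annotated 3′ UTRs were searched for the letters that match bases 2 to 8 of the microRNA, its seed. The mature miR-7a-5p and the matches of interest are written 5′ to 3′ below, with the seed or its match in capitals. Notch3 is shown as the only match among the 10 genes, Notch4 as a receptor whose match is 8 letters long, and Dtx4 and Itch because their transcripts were lower in Tg7 islets at 12w.
miR-7a-5p: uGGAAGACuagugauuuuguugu
Notch3: ttggtcaccagcccagacccccaGTCTTCC
Notch4: ggatcccctcaagttgcctgggGTCTTCCA
Dtx4: aacacagttaggaacacattctgGTCTTCC
Itch: atctcggaaacgcaatacacaagGTCTTCC
The microRNA sequence comes from RefSeq, where Mir7-2 lies on build GRCm38.p6 with the mature strand at chr7:78888295-78888317 (+). The transcript sequences come from the mm9 build that the counts use, and the Notch3 window is chr17:32258604-32258633 on the minus strand. Matches were GTCTTCC (bases 2 to 8 paired) or TCTTCCA (bases 2 to 7 paired, then A), on the transcript strand only; GTCTTCCA counts as both and was counted once. Of the 10 genes 1 (10%) held a match, against 23.1% of all 19984 genes with an annotated 3′ UTR and 26.8% of the 14406 tested ones. With only the 8-letter form, 0 of 10 did, against 3.66% of all genes. Of the 62 other pathway genes described below 5 (8.06%) held that form, against 4.35% of the tested genes. They were Notch4, Poglut1, Aph1b, Aph1c and Ncor1, and the near-identical copies Aph1b and Aph1c share their site. Any match was in 19 (30.6%) of the 62, beside the 26.8% of tested genes. The log2 fold change of Notch3 in Tg7 islets was -0.06 at 2w and 0.93 at 12w, with its values below.

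The regulatory side was read from promoter windows of 250 bases before to 50 bases after the RefSeq start on GRCm38.p6, searched on both strands for TGGGAA, the core letters of the RBPJ site. Windows for 8 of the 10 genes were in the table, without Hes1 and Hey1. One of these 8 (12.5%) held the letters, Rbpj itself, against 28.3% of all 27025 genes with a window. A gene counted if any of its windows held the letters. The longer GTGGGAA, which contains TGGGAA, was in 0 of 8 and in 7.25% of all genes with a window. Among 49 other pathway genes in the table, 16 (32.7%) held TGGGAA and 7 (14.3%) GTGGGAA. A stretch of Rbpj, the only member with the letters, and one of Lfng, a pathway gene that was higher in Tg7 at 12w, are shown with the match in capitals. In the Rbpj stretch shown the letters lie on the opposite strand and so read TTCCCA, and the Rbpj window also held TGGGAA on its own strand.
Rbpj: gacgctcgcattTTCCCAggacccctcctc
Lfng: tccgtatcccacGTGGGAAggagagatctc
They lie at chr5:53590269-53590298 (+) and chr5:140607220-140607249 (+) of GRCm38.p6. A match of these letters describes the window and is not a measured binding site.

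Per kilobase of exon, the components were not equally abundant. In Wt 2w the mean level, as CPM per kilobase of exon (RPKM), was 13.2 ± 1.05 (SD, n = 3) for Jag2, 9.61 ± 2.96 for Dll4 and 9.33 ± 2.04 for Hes1, and neighbours in this order overlapped. Hey1, Rbpj and Notch1 followed at 6.69 ± 1.91, 5.798 ± 0.374 and 5.60 ± 0.105, again overlapping. Notch3 at 3.35 ± 0.843, Dll1 at 2.66 ± 0.465 and Jag1 at 2.54 ± 0.273 formed a lower set, separate from Notch1 and overlapping among themselves. Notch2 was lowest, at 0.611 ± 0.147, below every Jag1 library. Notch2 also had the lowest mean in the other 3 groups, although in Wt 12w its libraries overlapped those of Notch3. In Wt 12w Dll4 stood at 3.19 ± 1.51 and Hey1 at 1.40 ± 0.392, whereas in Tg7 12w Dll4 was at 7.27 ± 0.941, next to Jag2 at 7.58 ± 0.251.

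**Figure D1:**
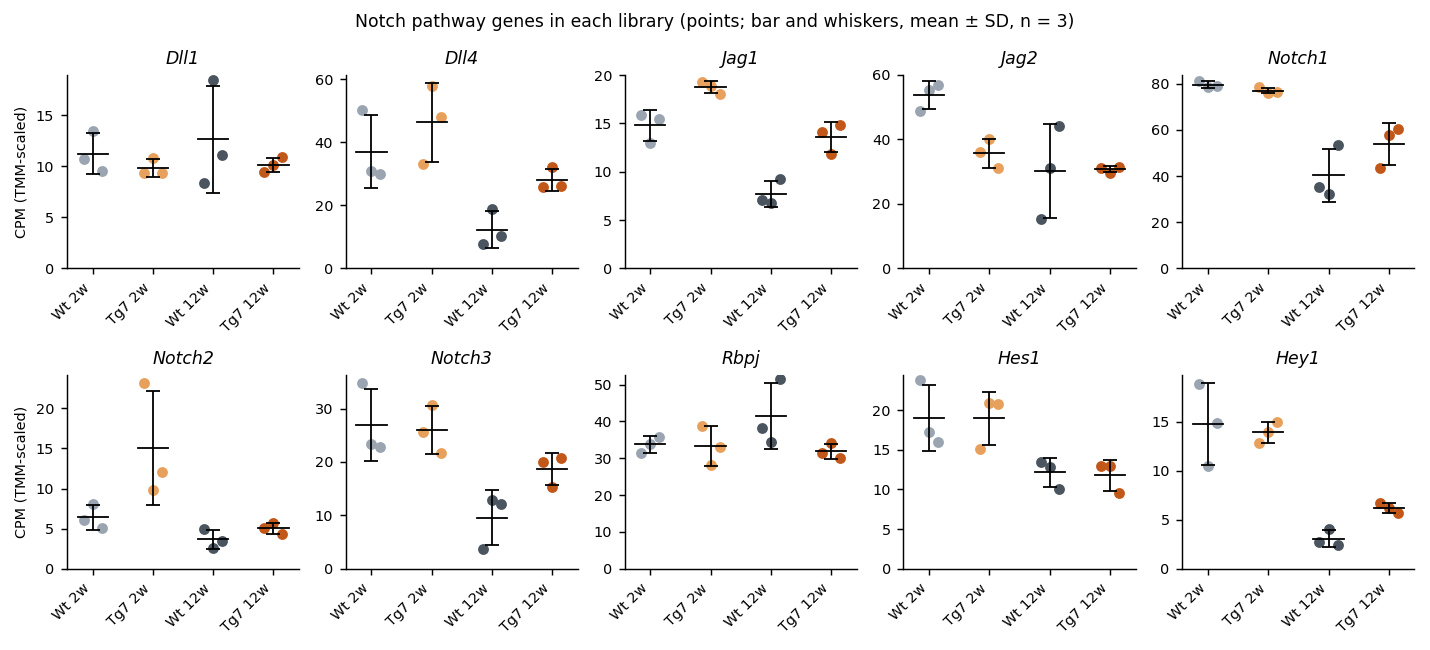
TMM-scaled CPM (vertical axes, each from 0) of the 10 genes in every library, by group; points are libraries, the bar is the mean and the whiskers ± SD (n = 3). Dll4, Jag1, Notch3 and Hey1 are lower in Wt 12w than in both 2w groups, with Tg7 12w above Wt 12w, while Notch2 is highest in Tg7 2w.

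Between genotypes, 1 of the 10 genes differed at 2w and 3 differed at 12w. At 2w Notch2 was higher in Tg7 (2.35-fold). At 12w the endothelial ligand Dll4 (2.25-fold), the ligand Jag1 (1.76-fold) and the target Hey1 (2.00-fold) were higher in Tg7, and none of the 10 was called lower at either age. Of all tested genes 10.6% were called at 2w (6.07% higher, 4.55% lower) and 23.6% at 12w (12.5% higher, 11.2% lower), so the counts of 1 and 3 among 10 were both near the share of all genes. Counted by libraries that did not overlap, 2 members were higher and 2 lower in Tg7 at 2w, beside 17.8% and 18.1% of all tested genes, and 4 were higher and 1 lower at 12w, beside 20.7% and 16.3%. The median log2 fold change of the 10 was -0.03 at 2w and 0.46 at 12w, where that of all tested genes was 0.03 and -0.01. On mm9 the 4 called genes are the protein-coding genes Notch2 (ENSMUSG00000027878, chr3:97817461-97954290, +), Dll4 (ENSMUSG00000027314, chr2:119151520-119161698, +), Jag1 (ENSMUSG00000027276, chr2:136907192-136942380, -) and Hey1 (ENSMUSG00000040289, chr3:8663362-8667039, -), and counts are over their exons. A call is an adjusted p (Benjamini-Hochberg over all tested genes) under 0.05 in edgeR's quasi-likelihood test.

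Among the receptors, Notch1 was at similar levels at 2w. Its CPM was 81.4, 78.8 and 78.9 in Wt 2w and 78.5, 76.2 and 76.6 in Tg7 2w. All Tg7 libraries lay just below all Wt libraries, and the log2 fold change was -0.05 ± 0.17 (± gives the SE here and below, adjusted p = 0.890). At 12w it was 35.2, 32.2 and 53.6 in Wt and 43.7, 57.8 and 60.6 in Tg7, so the groups overlapped through library 4 of Wt and library 1 of Tg7. The log2 fold change of 0.42 ± 0.17 was not called (adjusted p = 0.101), but passed the threshold without library 4 of Wt 12w (0.69) and without library 1 of Tg7 12w (0.57). Upper-quartile factors (0.52), scaling by totals alone (0.84) and the library number as a block (0.66) also gave a call.

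Notch2, a receptor with a known place in bile duct and B cell development, gave the call at 2w. Its CPM was 6.11, 8.10 and 5.05 in Wt 2w and 23.2, 9.87 and 12.1 in Tg7 2w. All 3 Tg7 libraries exceeded all Wt libraries, and library 1 of Tg7 was far above the other Tg7 libraries. The log2 fold change was 1.23 ± 0.32 (adjusted p = 0.0266), and fell to 0.78 and was no longer called without library 1 of Tg7 2w. It was also lost without library 1 (1.198) or library 3 (1.08) of Wt 2w. That library of Tg7 2w also had the highest summed levels of 8 macrophage markers (122 CPM against 52.6 and 60.8 in the other Tg7 2w libraries) and of 6 lymphocyte markers (29.6 against 4.42 and 6.61), and their part in the result was not tested. At 12w Notch2 was 4.92, 2.62 and 3.40 in Wt and 5.08, 5.75 and 4.35 in Tg7, and the log2 fold change of 0.50 ± 0.34 was not called (adjusted p = 0.335).

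Notch3, the receptor of mural cells around vessels, was not called at 2w, with 34.8, 23.4 and 22.7 CPM in Wt and 25.6, 30.7 and 21.6 in Tg7 (log2 fold change -0.06 ± 0.31, adjusted p = 0.932). At 12w Wt held 3.66, 12.9 and 12.1 CPM and Tg7 20.1, 15.2 and 20.7. All Tg7 libraries were higher and the low value of 3.66 came from library 1 of Wt, with 29 reads. The log2 fold change of 0.93 ± 0.33 missed the threshold (adjusted p = 0.0550). It passed it without library 2 (1.18) or library 4 (1.11) of Wt 12w, and with DESeq2 on all 12 libraries (0.94), whereas without library 1 of Wt it was 0.55 and not called. Upper-quartile factors (1.03), scaling by totals alone (1.33), no filter on low counts (0.935) and a stricter filter (0.96) also gave a call.

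Among the ligands, Dll4 and Jag1 were called at 12w and Dll1 and Jag2 were not. Dll4 CPM was 50.2, 30.9 and 30.01 in Wt 2w and 33.0, 57.9 and 47.8 in Tg7 2w, overlapping groups with a log2 fold change of 0.32 ± 0.29 (adjusted p = 0.520). At 12w it was 7.82, 18.9 and 10.2 in Wt and 25.8, 32.2 and 26.1 in Tg7. Every Tg7 library was above every Wt library, with a log2 fold change of 1.17 ± 0.30 (95% interval 0.52 to 1.82, adjusted p = 0.0127). The call was lost without library 2 of Tg7 12w, at 1.06.

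Jag1, a ligand found on endothelium, smooth muscle and duct cells alike, was 15.9, 13.0 and 15.5 CPM in Wt 2w and 19.3, 18.9 and 18.1 in Tg7 2w. The groups did not overlap, but the log2 fold change of 0.34 ± 0.17 was not called (adjusted p = 0.203). At 12w its CPM was 7.06, 6.75 and 9.20 in Wt and 14.2, 11.8 and 14.8 in Tg7. The groups were again apart, with a log2 fold change of 0.82 ± 0.17 (95% interval 0.44 to 1.19, adjusted p = 0.00406). Of the 4 genotype calls among the 10 genes, this was the one that held under all 22 alternatives, leaving out each library included.

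Jag2 ran the other way at 2w. Wt held 48.8, 55.3 and 56.8 CPM and Tg7 35.9, 39.9 and 31.0, with no overlap and a log2 fold change of -0.59 ± 0.25 that was not called (adjusted p = 0.151). It passed the threshold when only the 2w libraries were fitted, at -0.59 with edgeR and -0.60 with DESeq2, and also without library 1 (-0.59) or library 4 (-0.60) of Wt 12w, which enter through the shared spread. At 12w Wt Jag2 was spread over 15.3, 31.2 and 44.2 CPM around a narrow Tg7 group at 31.2, 29.6 and 31.4, and the log2 fold change was 0.01 ± 0.26 (adjusted p = 0.987). Dll1, the Delta ligand of the embryonic endocrine lineage, was 8.32 to 18.4 CPM over all 12 libraries, with log2 fold changes of -0.19 ± 0.25 at 2w (adjusted p = 0.673) and -0.33 ± 0.25 at 12w (adjusted p = 0.382). Both intervals included 0, from -0.72 to 0.34 and from -0.86 to 0.20. Dll1 shares its locus with the opposite-strand lincRNA A930024N18Rik, which held 765 counts over the 12 libraries against 2077 for Dll1, and whether the counting used strand is not stated in the sources at hand. Notch1, Notch3 and Dll4 also have opposite-strand lincRNA partners, with at most 976 counts against at least 4083 for the gene.

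Rbpj, through which all 4 Notch receptors act, was 31.5, 33.8 and 35.9 CPM in Wt 2w and 38.8, 28.2 and 33.0 in Tg7 2w (log2 fold change -0.02 ± 0.16, adjusted p = 0.963). At 12w it was 38.2, 34.4 and 51.5 in Wt and 31.5, 34.1 and 30.04 in Tg7. All 3 Tg7 libraries were lower, by a narrow margin, with a log2 fold change of -0.38 ± 0.16 (adjusted p = 0.112). The estimate was 0.05 when libraries were scaled by their totals alone, and it passed the threshold without library 2 of Wt 12w (-0.50).

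The target genes parted at 12w. Hes1 was 13.5, 12.9 and 10.1 CPM in Wt and 12.9, 13.0 and 9.55 in Tg7, overlapping groups with a log2 fold change of -0.03 ± 0.21 (95% interval -0.49 to 0.42, adjusted p = 0.932). Hey1 was 2.77, 4.05 and 2.40 CPM in Wt and 6.65, 6.20 and 5.66 in Tg7. No Tg7 library overlapped Wt, and the log2 fold change was 1.002 ± 0.26 (95% interval 0.45 to 1.55, adjusted p = 0.0124). These Wt levels rested on 22 to 51 reads per library. At 2w both targets overlapped between genotypes. Hes1 was 23.7, 17.2 and 16.01 in Wt and 15.1, 20.9 and 20.8 in Tg7 (log2 fold change -0.00 ± 0.20, adjusted p = 0.992), and Hey1 was 18.9, 10.5 and 14.9 in Wt and 12.8, 14.0 and 15 in Tg7 (-0.08 ± 0.23, adjusted p = 0.854).

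**Figure D2:**
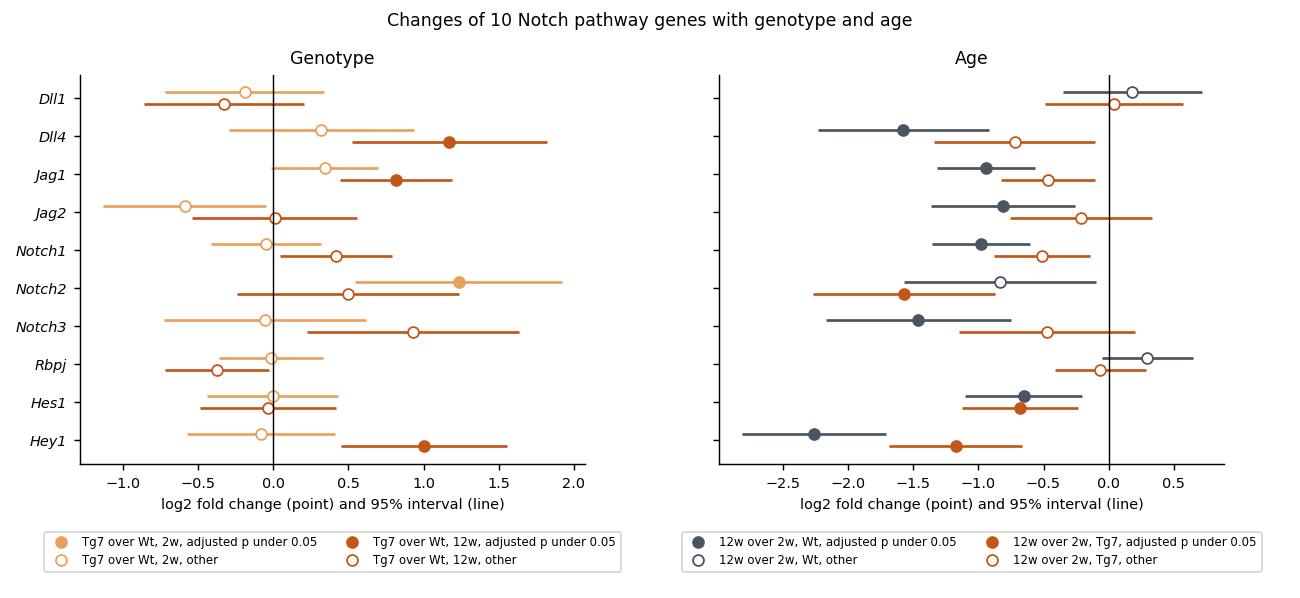
Log2 fold changes of the 10 genes (points) with 95% intervals (lines); left, Tg7 over Wt at 2w and 12w; right, 12w over 2w in Wt and in Tg7; filled points have an adjusted p under 0.05 (edgeR, 3 libraries a group). Dll4, Jag1 and Hey1 at 12w and Notch2 at 2w are filled on the left, and 7 Wt points are filled below 0 on the right against 3 Tg7 points.

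Whether the Tg7 effect itself differed between ages was tested as an interaction. By edgeR 0 of the 10 genes passed, beside 1.18% of all tested genes, and DESeq2 on all libraries also called 0. At an unadjusted p under 0.05 there were 2 of 10, Hey1 with 1.09 ± 0.35 on the log2 scale (adjusted p = 0.165) and Notch3 with 0.99 ± 0.45 (adjusted p = 0.338), beside 14.5% of all tested genes. The larger effects at 12w in Dll4 (0.85 ± 0.42, adjusted p = 0.372) and Jag1 (0.47 ± 0.24, adjusted p = 0.393) were thus not shown to differ from those at 2w, and neither was the smaller effect in Notch2 (-0.74 ± 0.47, adjusted p = 0.511). Without library 4 of Wt 12w the count was 1, Notch1 with 0.74.

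From 2w to 12w most of the 10 genes fell in Wt islets. Of the 10 genes 7 were lower in Wt 12w than in Wt 2w, beside 15.8% of all tested genes called (7.90% higher, 7.91% lower), and none was called higher. Libraries of 8 members did not overlap between Wt 2w and Wt 12w, all lower at 12w, where 15.6% of all tested genes did so (15.7% in the higher direction). In Tg7 islets 3 of 10 were lower, beside 13.0% of all tested genes called (7.02% higher, 6.01% lower). The median log2 change of the 10 was -0.89 in Wt and -0.49 in Tg7. Hey1 fell furthest in Wt, by 2.26 ± 0.26 on the log2 scale (a 4.79-fold drop, adjusted p = 7.295e-05), followed by Dll4 with -1.57 ± 0.30 (adjusted p = 0.00331) and Notch3 with -1.46 ± 0.33 (adjusted p = 0.00879). Notch1 and Jag1 changed by about as much as each other, with -0.98 ± 0.18 (adjusted p = 0.00207) and -0.94 ± 0.17 (adjusted p = 0.00256). The calls of Jag2 (-0.81 ± 0.26, adjusted p = 0.0457) and Hes1 (-0.65 ± 0.21, adjusted p = 0.0495) sat at the threshold. Jag2 was lost in 9 and Hes1 in 10 of 12 fits that left out 1 library, at log2 values from -0.88 to -0.50 and from -0.77 to -0.46. The smallest of these came without library 1 of Wt 12w for Jag2 and without library 1 of Wt 2w for Hes1.

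In Tg7 islets the genes that fell with age were Notch2, by 1.57 ± 0.33 on the log2 scale (adjusted p = 0.00585), Hey1, by 1.17 ± 0.24 (adjusted p = 0.00510), and Hes1, by 0.68 ± 0.21 (adjusted p = 0.0435). Hes1 was again at the threshold and was lost in 7 of 12 such fits. Notch1 (-0.51 ± 0.17), Dll4 (-0.72 ± 0.29), Jag1 (-0.47 ± 0.17) and Notch3 (-0.47 ± 0.32) did not overlap between Tg7 2w and Tg7 12w, each lower at 12w, but were not called (adjusted p 0.0657 to 0.357). Notch1 was called without library 2 or 4 of Wt 12w (-0.51 in both), and Jag1 without library 4 of Wt 12w (-0.46). When only the Tg7 libraries were fitted with edgeR, Notch1 (-0.52), Dll4 (-0.73) and Jag1 (-0.48) were called. Notch1 was also called with DESeq2 on all 12 libraries and with upper-quartile factors (-0.52 in both), whereas the latter lost the call of Hes1 (-0.685). With the library number as a block Notch1 (-0.52) and Jag1 (-0.47) were called. In all, 7 members were without overlap and lower in Tg7 12w, beside 19.2% of all tested genes (21.5% in the higher direction). Dll1 and Rbpj were called in neither genotype, with Wt changes of 0.18 ± 0.25 and 0.30 ± 0.16. The Tg7 against Wt comparison at 12w and the age comparison in Wt share the 3 Wt 12w libraries, so the fall in Wt and the higher Tg7 values at 12w are not separate observations. The difference between the 2 age changes is the interaction given above, in which no member passed.

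These islets held vessels and connective tissue as well as endocrine cells, and in bulk tissue more cells of a type and more RNA per cell cannot be told apart. Summed over 12 endothelial markers, the level was 1135 to 1423 CPM in Wt 2w, 1295 to 1380 in Tg7 2w, 492 to 610 in Wt 12w and 999 to 1043 in Tg7 12w. The groups were apart at 12w, and 10 of the 12 markers were called higher in Tg7 while 0 were at 2w. With age 10 of 12 were called lower in Wt and 3 of 12 in Tg7. The 11 stellate, pericyte and fibroblast markers summed to 360 to 506 CPM in Wt 2w, 541 to 718 in Tg7 2w, 93.4 to 156 in Wt 12w and 403 to 424 in Tg7 12w. Of these 6 were called higher in Tg7 at 2w and 10 at 12w, and 8 were lower with age in Wt. All markers of both lists were detected. The 11 ductal markers, of which 9 were tested, summed to 1551 to 2177 CPM in Wt 12w and 1576 to 1919 in Tg7 12w, overlapping groups. Of the 9, 2 were called higher and 1 lower in Tg7 at 12w.

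Relative to the endothelial markers, Dll4, Hey1 and Jag1 overlapped between Tg7 and Wt at 12w. The Tg7 mean over the Wt mean was 1.26 for Dll4, 1.10 for Hey1 and 0.9753 for Jag1 on this scale. For Notch1 and Jag2 it was lower, at 0.74 and 0.5745, also with overlapping groups at 12w. At 2w the Jag2 share was 2.39 to 2.89% in Tg7 and 3.43 to 4.87% in Wt, lower in every Tg7 library. As a share of the summed endothelial markers, Dll4 was 2.20 ± 0.979% in Wt 12w (1.59, 3.32 and 1.67%) and 2.76 ± 0.286% in Tg7 12w (2.58, 3.09 and 2.61%). Hey1 was 0.556 ± 0.160% and 0.609 ± 0.0509%, and Jag1 1.38 ± 0.168% and 1.34 ± 0.187%. The fall of Hey1 with age was seen on this scale too, since in Wt 2w its share was 1.17 ± 0.219% (lowest 0.921%), above every Wt 12w library (highest 0.712%), and in Tg7 2w it was 1.05 ± 0.0929%, above every Tg7 12w library. For Dll4 the Wt 2w share of 2.93 ± 0.519% overlapped that of Wt 12w. Notch3 as a share of the stellate, pericyte and fibroblast markers was 7.43 ± 3.37% in Wt 12w and 4.47 ± 0.602% in Tg7 12w, overlapping groups. Jag1 on that scale was 6.33 ± 1.07% in Wt 12w (5.55 to 7.56%) and 3.26 ± 0.294% in Tg7 12w (2.93 to 3.49%), lower in every Tg7 library. These shares are a description without a test, chosen after the levels were seen, and the part of cell makeup in the member results was not tested.

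**Figure D3:**
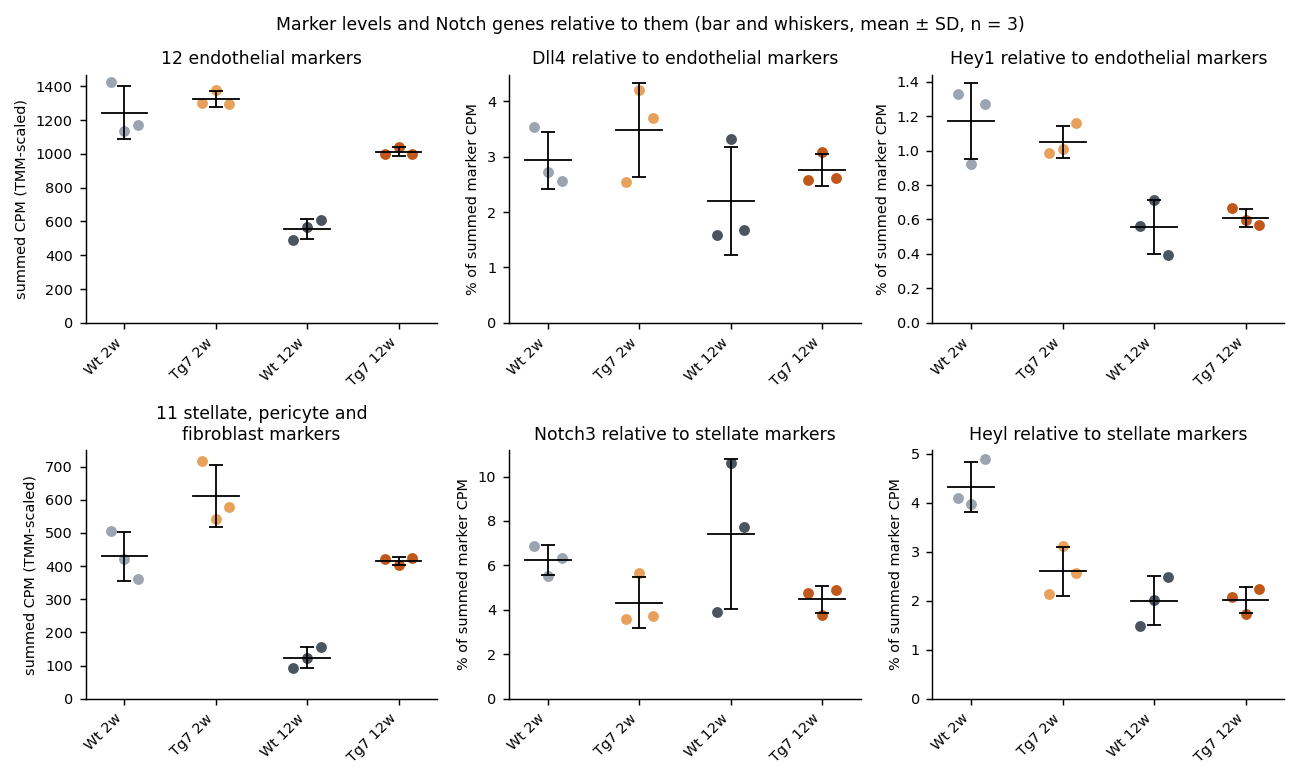
Left column, TMM-scaled CPM summed over 12 endothelial markers (top) and 11 stellate, pericyte and fibroblast markers (bottom); other panels, Dll4 and Hey1 as a percentage of the endothelial sum and Notch3 and Heyl as a percentage of the stellate, pericyte and fibroblast sum; points are libraries, bar and whiskers the mean ± SD (n = 3). The marker sums separate Tg7 12w from Wt 12w, whereas the 4 shares overlap between those groups.

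Beyond the 10, a list of 62 other pathway genes was examined, of which 57 were tested. The ligand genes Dll3 and Dlk2 and the target genes Hes2, Hes3 and Hes5 did not pass the filter. At 2w 6 of the 57 were called, 4 higher and 2 lower in Tg7, and at 12w 17, 12 higher and 5 lower, beside the 10.6% and 23.6% of all tested genes. Their median log2 fold change was -0.02 at 2w and 0.06 at 12w. At 12w the split of 12 higher and 5 lower became 29 higher and 0 lower when libraries were scaled by their totals alone, a scaling that also moved the median of all genes by 0.44. By role, the calls at 12w were 2 of 3 other ligands and receptors, 1 of 5 glycosylation enzymes, 1 of 6 genes of ligand endocytosis, 1 of 10 genes of receptor cleavage, 3 of 15 of the nuclear complex, 5 of 11 of turnover and inhibition, 1 of 4 other targets and all 3 endocrine bHLH genes.

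The largest difference was in Dlk1, a ligand-like protein that lacks the domain by which Delta and Jagged proteins activate Notch. Its CPM was 30.02, 51.9 and 49.9 in Wt 2w, 83.9, 54.8 and 91.6 in Tg7 2w, 21.9, 10.2 and 13.7 in Wt 12w and 129, 172 and 138 in Tg7 12w. The 12w groups were far apart, with a log2 fold change of 3.28 ± 0.29 (9.70-fold, adjusted p = 4.866e-06). Dlk1 fell with age in Wt, by 1.54 ± 0.28 on the log2 scale (adjusted p = 0.00234), and rose in Tg7 (0.93 ± 0.26, adjusted p = 0.0324), a call lost without library 1 (0.99) or 2 (0.74) of Tg7 2w or any library of Tg7 12w (0.80 to 1.01). The Tg7 effect differed between ages by 2.47 ± 0.38 (adjusted p = 0.00651), a call that held under every alternative run.

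Heyl, a Hey-family target known from mural cells, was the other gene whose Tg7 effect differed between ages, by 1.88 ± 0.36 (adjusted p = 0.0222). Its CPM was 20.7, 16.8 and 17.6 in Wt 2w, 15.3, 16.9 and 14.8 in Tg7 2w, 1.39, 2.46 and 3.87 in Wt 12w and 8.80, 6.92 and 9.497 in Tg7 12w. It was thus 3.13-fold higher in Tg7 at 12w (log2 1.65 ± 0.27, adjusted p = 0.000664) and had fallen 6.84-fold with age in Wt. The interaction call was lost in 5 of 12 fits without 1 library, namely each Wt 2w library and libraries 1 and 3 of Tg7 12w, at 1.79 to 1.95. Relative to the stellate, pericyte and fibroblast markers Heyl was at 2.00 ± 0.498% in Wt 12w and 2.01 ± 0.267% in Tg7 12w. At 2w it was at 4.32 ± 0.503% in Wt (lowest 3.97%) and 2.60 ± 0.498% in Tg7 (highest 3.12%), without overlap. The Tg7 mean over the Wt mean on this scale was 0.602 at 2w and 1.01 at 12w. In Wt the share at 2w was above every 12w library (highest 2.48%). These shares were not tested.

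Among the endocrine bHLH genes that HES1 can repress, Neurog3 and Neurod1 moved in opposite directions at 12w. Neurog3, the master factor of endocrine progenitors, was 8.95, 5.398 and 8.13 CPM in Wt 12w and 18.8, 31.7 and 21.6 in Tg7 12w (log2 fold change 1.69 ± 0.27, adjusted p = 0.000575), and was already higher at 2w, with 5.52, 8.69 and 6.07 against 14.6, 9.74 and 15.4 (0.98 ± 0.27, adjusted p = 0.0340). The 2w call was lost without library 1 or 3 of either genotype, at 0.85 to 0.91, whereas the 12w call held under every alternative run. Neurod1, which maintains mature islet cells, was 289, 222 and 203 CPM in Wt 12w and 150, 141 and 136 in Tg7 12w (-0.74 ± 0.13, adjusted p = 0.00121). Hes1 itself overlapped between genotypes at both ages, as given above.

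Around the receptors, Lfng, a glycosyltransferase that favours Delta over Jagged binding, was 1.39, 1.35 and 1.07 CPM in Wt 12w and 2.76, 3.43 and 2.29 in Tg7 12w (log2 fold change 1.17 ± 0.31, adjusted p = 0.0152). The call was lost without library 2 of Tg7 12w (1.004) and when the 12w libraries were fitted alone (1.14 with edgeR, 1.15 with DESeq2). Notch4, the endothelial receptor, was 10.5, 19.1 and 15.7 CPM in Wt 12w and 27.2, 27.8 and 29.6 in Tg7 12w (0.89 ± 0.22, adjusted p = 0.0110). It is named after its values were seen, since it was not among the 5 largest rises. As a share of the endothelial markers it was 2.68 ± 0.621% and 2.78 ± 0.157%. In Wt islets Notch4 and Lfng also fell with age, by 1.61 ± 0.23 and 1.54 ± 0.31 on the log2 scale (adjusted p = 0.000359 and 0.00438).

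The 5 genes lower in Tg7 at 12w concern receptor turnover, the nuclear complex and endocrine identity. Besides Neurod1 they were Dtx4 (-0.81 ± 0.21, adjusted p = 0.0121), a ubiquitin ligase of the Deltex family, the LIM protein Fhl1 (-0.61 ± 0.15, adjusted p = 0.0109), the ubiquitin ligase Itch (-0.49 ± 0.16, adjusted p = 0.0357) and the corepressor Spen (-0.41 ± 0.13, adjusted p = 0.0383). Of these Itch and Dtx4 carry the seed matches shown above, Itch 3 of them. Over the 57 tested genes, 19 held a match, of which 3 were called higher and 2 lower at 12w, and of the 38 without a match 9 were called higher and 3 lower. Of all tested genes 12.5% were called higher and 11.2% lower. The median log2 fold change at 12w was -0.04 with a match and 0.07 without, and at 2w -0.08 and -0.01. A part of miR-7 in these differences was not tested. Dtx4 was 36.9, 38.7 and 23.1 CPM in Wt 12w and 18.6, 20.03 and 17.7 in Tg7 12w, and Itch 66.3, 55.7 and 91.9 against 50.8, 50.2 and 51.6, without overlap in either gene. The calls of Itch and Spen were each lost in 6 of 12 fits without 1 library, with the smallest estimates of -0.26 and -0.31 without library 4 of Wt 12w, and also when the 12w libraries were fitted alone. That of Fhl1 was lost without library 1 of Tg7 12w (-0.58) and that of Dtx4 without library 1 (-0.78) or 3 (-0.76) of Tg7 12w. With scaling by totals alone the estimate of Spen was 0.03 and none of the 5 was called.

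At 2w the largest call was Aph1c, a γ-secretase subunit, at 1.25, 2.65 and 1.65 CPM in Wt and 5.23, 5.13 and 7.75 in Tg7 (log2 fold change 1.72 ± 0.37, adjusted p = 0.00962). Aph1c is a near-identical copy of Aph1b, and how reads were split between them is uncertain. It was lost without library 1 (1.497) or 3 (1.64) of Wt 2w. Cir1, a corepressor that binds RBPJ (0.56 ± 0.13, adjusted p = 0.0111), and Dner, a neural Notch ligand (0.52 ± 0.14, adjusted p = 0.0359), were also higher. Dtx2 (-0.50 ± 0.14, adjusted p = 0.0344) and the endocytic adaptor Epn1 (-0.49 ± 0.12, adjusted p = 0.02003) were lower. The call of Cir1 was lost without library 3 of Tg7 2w (0.51), that of Epn1 in 4, of Dner in 8 and of Dtx2 in 9 of 12 fits without 1 library. Of these 6 calls at 2w only Cir1 and Aph1c carry a miR-7 match, and both were higher in Tg7. Of the 38 tested pathway genes without a match 2 were called higher and 2 lower, beside 6.07% and 4.55% of all tested genes.

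**Figure D4:**
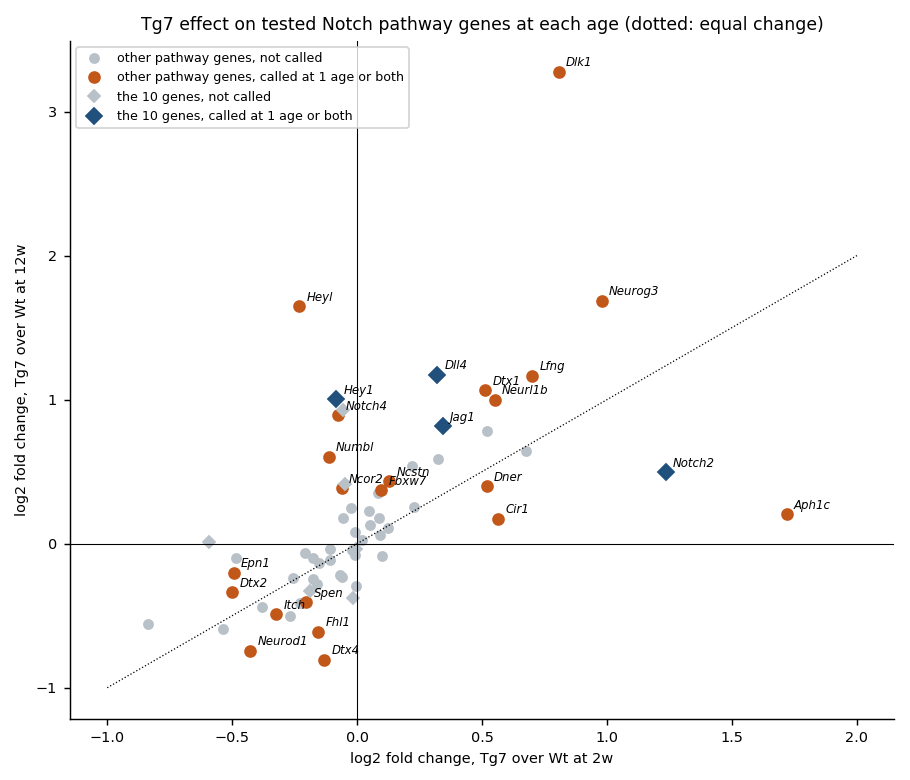
Log2 fold change of Tg7 over Wt at 2w (horizontal) and 12w (vertical) for the 10 genes (diamonds) and 56 of the 57 other tested pathway genes (circles); coloured and named points have an adjusted p under 0.05 at 1 age or both, and the dotted line marks equal change. Dlk1 at 3.28 and Heyl at 1.65 on the 12w axis lie farthest above the line, and Notch2 and Aph1c lie to the right of it.

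Of the 57 tested pathway genes 13 changed with age in Wt (4 higher, 9 lower) and 10 in Tg7 (4 higher, 6 lower), beside 15.8 and 13.0% of all tested genes. With scaling by totals alone the Wt split was 1 higher and 24 lower, and the Tg7 split 0 higher and 7 lower. The glycosyltransferases Lfng and Mfng were lower at 12w in both genotypes, Mfng by 1.28 ± 0.26 in Wt (adjusted p = 0.00475) and by 0.96 ± 0.25 in Tg7 (adjusted p = 0.0205) on the log2 scale. So was the protease gene Adam17, by 0.56 ± 0.13 and 0.58 ± 0.13 (adjusted p = 0.00988 and 0.00764). In Tg7 the calls of Lfng, Mfng and Adam17 were lost in 3, 4 and 1 of 12 fits without 1 library, and that of Adam17 in Wt in 1. Mfng and Adam17 are named after their values were seen.

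Across the 12 libraries, the tested genes with the CPM pattern most like each member were found by Pearson's r of log2 CPM, given as a description. The 12 points fall into 4 groups, so r over the deviations from group means follows. Hey1 was closest to Pdgfb (r = 0.980, 0.744 within groups), Aplnr (0.977, 0.587) and Robo4 (0.974, 0.642). Notch3 was closest to Rasl12 (0.984, 0.975), Plod1 (0.967, 0.934) and Sema7a (0.962, 0.957). Dll4 was closest to Ahsa1 (0.981, 0.938), Plce1 (0.975, 0.866) and Cdc42ep1 (0.968, 0.844), and Jag1, by the genes reported here, to Foxs1 (0.970, 0.664) and Thy1 (0.965, 0.643). Notch1 was closest to Tmem204 (0.972, 0.851), Arrdc3 (0.961, 0.806) and Lats2 (0.959, 0.870), and Jag2 to Gtf3c1 (0.964, 0.948), Hnrnpul2 (0.963, 0.963) and Gm17296 (0.956, 0.932). The best r of Notch2 (Tcf7, 0.937, then Rest and Scarb1), Rbpj (1200011I18Rik, 0.942, also Chm), Hes1 (Rph3al, 0.922, then Baalc and Fam167b) and Dll1 (Eif3g, 0.890, then Lrrc68 and Pmvk) were lower. Libraries also differ in depth and insulin share, which these correlations share.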

How the data were processed

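Total RNA of islets (Liberase digestion, Histopaque gradient) was made into NEB Ultra II libraries and read as paired ends on a HiSeq2500. The authors deposited raw counts per Ensembl gene: per the methods and the submitters' processing notes reads were trimmed with Trimmomatic, aligned to mm9 (NCBIM37) with TopHat2 2.0.11 and counted with featureCounts, after base calling (CASAVA in the methods, bcl2fastq 2.20.0 in the notes). Strandedness and the annotation used for counting are not stated in these sources. Of 37991 IDs, 37205 matched the mm9 annotation used for names, lengths and 3′ UTRs.

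Counts were tested here with edgeR 4.0.16 (R 4.3.3, limma 3.58.1): filterByExpr (minimum count 10, minimum total 15), TMM factors, glmQLFit and glmQLFTest on 4 group means over 12 libraries, Benjamini-Hochberg adjustment over 15961 genes, threshold 0.05. The SE is the absolute log2 fold change over the square root of F, and intervals are 95%. The common biological coefficient of variation was 0.212. DESeq2 1.42.0, other scalings, filters, fits of the compared groups alone, a replicate block and leaving out each library were alternatives. Each library is a pool of animals, so p-values measure the spread between pools; animals within a pool cannot be seen. The script was tested on simulated counts. Figures used matplotlib.

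The members and lists were chosen with earlier results of these data known. Named were all 10 members, the 5 largest rises and 5 largest falls among called pathway genes in each Tg7 against Wt comparison, and the 3 genes most correlated with each member (log2 CPM, prior count 2); others are marked as chosen after their values were seen. Marker lists of β-, α-, δ-, ductal, acinar, endothelial, stellate, macrophage, lymphocyte and Schwann cells were summed as CPM. Tg7 over Wt ratios at 2w and 12w were 1.38 and 0.988 for α (5 genes), 1.01 and 0.741 for δ (4), 1.58 and 0.721 for acinar (10), 1.49 and 0.826 for macrophage (8), 3.60 (1.47 without library 1 of Tg7 2w) and 0.476 for lymphocyte (6) and 1.30 and 1.51 for Schwann markers (6). Named genes whose values are not printed are not reported here.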

Additional observations from a re-analysis of the deposited data

Results flagged for a closer look

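Among the 67 tested pathway genes, the difference between the Tg7 effect at 12w and that at 2w passed the threshold in 2, both outside the 10 members. For Dlk1 the effect on the log2 scale was larger at 12w by 2.47 (edgeR, adjusted p = 0.00651, 3 libraries per group), with 0.81 at 2w and 3.28 at 12w. For Heyl it was larger at 12w by 1.88 (adjusted p = 0.0222), with -0.23 at 2w and 1.65 at 12w, and it went below the threshold in 5 of the 12 fits that left out 1 library. Neither difference was followed further.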

How the results depend on the processing

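The 10 members' single-gene results kept their side of the threshold in 992 alternative fits, lost a call in 37 and gained one in 31, and no called member changed sign. Scaling by library totals alone moved the median log2 change of all genes by 0.17 at 2w, 0.44 at 12w, -0.39 with age in Wt and -0.12 with age in Tg7. Relative to that shifted median Dll4, Jag1, Hey1 and Notch3 stood at 1.18, 0.82, 1.01 and 0.90 at 12w. It called 6 members and 29 other pathway genes at 12w and 25 other genes with age in Wt, and turned Spen at 12w to 0.0293. Upper-quartile factors called 5 members at 12w. With edgeR on the compared groups alone the counts were 2 members and 11 other genes at 2w, 10 other genes at 12w, and 6 members and 16 other genes with age in Tg7; with DESeq2 on each age alone, 2 and 12 at 2w and 11 other genes at 12w. Without 1 library, members called ranged from 0 to 2 at 2w, 2 to 5 at 12w, 0 to 1 for the difference between ages, 5 to 7 with age in Wt and 2 to 5 with age in Tg7, and other genes from 1 to 14, 9 to 20, 1 to 4, 9 to 20 and 3 to 15. No member call at 2w remained without library 1 or 3 of Wt 2w or library 1 of Tg7 2w. At 12w there were 5 without library 2 or 4 of Wt 12w, and without library 4 of Wt 12w there were also 1 for the difference between ages and 5 with age in Tg7. Other genes numbered 14 at 2w, 4 for the difference and 20 with age in Wt without library 4 of Wt 12w, 1 to 3 at 2w without any Wt 2w library or library 1 or 3 of Tg7 2w, 9 to 11 at 12w without any Tg7 12w library, and 3 to 6 with age in Tg7 without library 1 or 2 of Tg7 2w or any Tg7 12w library. The single 8-letter seed form gave 0 members and the longer RBPJ letters 0. The causes were not tested.

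The sample titles give replicate numbers without stating that equal numbers form a pair, and libraries were treated as unpaired. Deviations of equally numbered Tg7 and Wt libraries correlated at -0.167 to -0.0112, and none of these correlated best with its own number. With 3 libraries a group, such correlations cannot exclude a pairing, for example by litter. Between ages the equally numbered libraries correlated at -0.114 and -0.0362 in Wt and 0.13, -0.0118 and 0.183 in Tg7. With the number as a replicate block 2 members and 12 other genes were called at 2w. With age the calls were 20 other genes in Wt and 5 members in Tg7. Hey1 at 12w was 0.81 and not called in that fit. Library 4 of Wt 12w was the only one with its number, so the block absorbed it and it did not enter the comparisons. These results thus combine the block with the loss of that library. At 22 to 51 reads per library in Wt 12w, Hey1 was among the least deeply counted members.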
